A study of Mus musculus with 12 samples.

Results

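Socs3, Zfp36, Il1a and Ccl9 are cytokine genes and brakes on cytokine signalling that stood out in microdissected CA1 tissue of mice expressing VP16-CREB, in which the transcription factor CREB is fused to a viral activation domain and is active without a stimulus. All probe sets of an Affymetrix MG-U74Av2 array annotated with 1 of these 4 symbols were taken, which gave 4 of 8251 named genes and 5 of 12422 probe sets that are not controls: Socs3 (92232_at and 162206_f_at), Zfp36 (92830_s_at), Il1a (94755_at) and Ccl9 (104388_at). The genes had been picked from their CA1 values, so those values are given here as a description without a test. All 5 probe sets were among the 7069 bright enough to be tested, that is, above the array's median on at least 2 arrays. Both Socs3 probe sets and Il1a were above the median on the 3 CA1 arrays and on 0 of 9 hippocampal ones, so they entered the tested set through CA1 alone and had to be high there. Ccl9 was above the median on 2 of the 3 CA1 arrays and 2 of 9 hippocampal ones, so its entry too rested on few arrays. The endings _f_at and _s_at mark probe sets whose sequence is shared with other transcripts, so those values can hold signal from more than the named gene.

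The series held 12 arrays of polyA RNA. Whole hippocampus gave 9: wild-type mice (2 arrays, here wild type 1 and 2), transgenic VC mice (VC for VP16-CREB) kept on the drug doxycycline (dox), which holds the transgene off (1 array), VC mice 1 week off dox (2), 2 weeks off dox (2) and 5 weeks off dox (1), and VC mice reversed by 2 weeks of dox after 3 weeks of expression (1). Microdissected CA1 gave 3: wild type (1) and VC mice 3 weeks off dox (2, here CA1 VC 1 and CA1 VC 2). The wild-type hippocampal arrays and the VC array on dox are called never-induced below (3 arrays), and the arrays at 1, 2 and 5 weeks induced (5 arrays). Each hippocampal sample was a pool of 6 to 10 mice, while the sources used here do not give the mice behind a CA1 sample, nor strain, sex or age. In this line the transgene is known to be driven from the CaMKII alpha promoter through a tetracycline transactivator, that is, in forebrain excitatory neurons. The labels do not name that driver. The description of the reversed array reads wild type while its title reads VC, and the title was followed.

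Cytokine signals in tissue are limited by genes that the signals themselves switch on. Il1a encodes interleukin-1 alpha, a ligand of the interleukin-1 receptor that leads to NF-kappa-B activity, and Ccl9 encodes a CC chemokine that binds the receptor CCR1. In brain both are known mainly from microglia and macrophages. Socs3 is an inhibitor induced through STAT proteins by interleukin-6 family cytokines, and it blocks the JAK kinases at their shared receptor. Zfp36 encodes tristetraprolin (TTP), which binds AU-rich elements in mRNAs such as Tnf and speeds their decay. Socs3 and Zfp36 are also known as early response genes, switched on quickly by many stimuli.

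The promoters are shown because CREB acts at the cAMP response element (CRE), so the upstream bases of the 4 genes are where its recognition letters would be looked for. RefSeq held an entry for 4 of 4 genes (build GRCm38.p6), all on the minus strand. The 250 bases before each annotated start are chr11:117969367-117969616 for Socs3, chr7:28379229-28379478 for Zfp36, chr2:129309973-129310222 for Il1a and chr11:83578637-83578886 for Ccl9. Capitals mark a match to 1 of 7 motifs searched on both strands.
Socs3: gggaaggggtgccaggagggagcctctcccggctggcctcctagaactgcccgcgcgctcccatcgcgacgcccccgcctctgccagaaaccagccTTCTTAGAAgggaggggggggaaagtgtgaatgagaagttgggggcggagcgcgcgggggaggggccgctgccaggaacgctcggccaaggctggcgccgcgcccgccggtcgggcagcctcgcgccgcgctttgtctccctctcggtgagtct
Zfp36: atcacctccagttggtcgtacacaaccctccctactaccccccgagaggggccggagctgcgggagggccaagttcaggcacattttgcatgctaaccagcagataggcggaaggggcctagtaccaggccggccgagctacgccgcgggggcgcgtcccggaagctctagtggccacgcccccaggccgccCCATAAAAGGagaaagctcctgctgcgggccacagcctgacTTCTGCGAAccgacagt
Il1a: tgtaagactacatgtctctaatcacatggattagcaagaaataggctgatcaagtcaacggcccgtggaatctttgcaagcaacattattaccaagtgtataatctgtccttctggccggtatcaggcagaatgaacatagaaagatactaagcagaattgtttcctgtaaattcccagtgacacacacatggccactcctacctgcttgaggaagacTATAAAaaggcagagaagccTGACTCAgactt
Ccl9: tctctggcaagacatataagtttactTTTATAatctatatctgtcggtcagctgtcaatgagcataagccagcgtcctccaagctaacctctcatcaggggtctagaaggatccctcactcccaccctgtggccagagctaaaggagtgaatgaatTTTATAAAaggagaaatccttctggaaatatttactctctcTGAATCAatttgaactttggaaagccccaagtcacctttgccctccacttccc

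The motifs were the short CRE TGACG, the full CRE TGACGTCA, the AP-1 site TGANTCA, the NF-kappa-B site, the STAT site TTCNNNGAA, the TATA box TATAAA and the CArG box, and they were chosen with the values below known. The 2 inhibitor genes each held a STAT site, TTCTTAGAA starting 154 bases before the start in Socs3 and TTCTGCGAA starting 17 bases before it in Zfp36, a motif present in 7.02% of 32851 windows of the same length. Zfp36 also held a CArG box (CCATAAAAGG, 58 bases before the start, 1.47% of windows), the element known from serum response genes. The 2 ligand genes each held an AP-1 site, TGACTCA at 12 bases in Il1a and TGAATCA at 53 bases in Ccl9 (6.75% of windows). Both ligand genes also held a match to the TATA box (12.4% of windows), as TATAAA at 32 bases in Il1a and at 92 bases in Ccl9. Ccl9 matched on the other strand too, as TTTATA at 224 and 94 bases, and its matches at 94 and 92 bases overlap. No window of the 4 held the short CRE (17.8% of windows), the full CRE (1.55%) or the NF-kappa-B site (0.356%). These matches are letters in a window and no evidence of binding. The upstream bases also differed in composition, with a GC content of 71.6% in Socs3 and 64.8% in Zfp36 against 42.4% in Il1a and 43.6% in Ccl9.

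Values below are signals rescaled so that each array has the same 2% trimmed mean, set to 1000. Log2 differences use a floor of 65.7, below which probe sets have no order. Levels are compared between arrays for 1 probe set, never between probe sets. Socs3 (92232_at) lay below the floor on all 9 hippocampal arrays, at 21.1 to 55, and read 1074 in wild-type CA1, 1301 in CA1 VC 1 and 3514 in CA1 VC 2. Its other probe set (162206_f_at) read 148 and 165 in wild-type hippocampus and 139 on dox. Its 1-week pools had 67.4 and 92.6, its 2-week pools 136 and 182, the 5-week pool 126 and the reversed pool 139. It then read 546 in wild-type CA1 and 773 and 1488 in the 2 CA1 VC arrays. Both Socs3 probe sets thus separated the tissues completely, whatever the genotype.

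Zfp36 was at 126 and 567 in the wild-type hippocampal pools and at 588 in the pool on dox. Off dox its hippocampal values were 265 and 588 (1 week), 319 and 538 (2 weeks) and 576 (5 weeks), and the reversed pool had 474. Wild-type CA1 was at 2115, CA1 VC 1 at 2567 and CA1 VC 2 at 7356. Wild type 1 was the lowest Zfp36 value of the series, and the other 8 hippocampal arrays overlapped without regard to genotype or time. Il1a read 121 and 134 in wild-type hippocampus and 164 on dox. The 1-week pools had 131 and 32.1, the latter below the floor, the 2-week pools 67.5 and 105, the 5-week pool 188 and the reversed pool 110. In CA1 Il1a read 384 in wild type, 643 in VC 1 and 8044 in VC 2. Induced and never-induced hippocampus overlapped for Il1a, although both 2-week pools and the reversed pool lay below all 3 never-induced arrays and the 5-week pool above them. CA1 VC 2 stood far above the other 11 arrays.

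Ccl9 had another order. It began at 144 and 172 in the wild-type hippocampal pools and 164 in the pool on dox. Off dox the hippocampal signal was 234 and 279 (1 week), 341 and 432 (2 weeks) and 1058 (5 weeks), and the reversed pool stood at 345. Wild-type CA1 was at 236, CA1 VC 1 at 1161 and CA1 VC 2 at 2462. No never-induced array reached any induced one, and wild-type CA1 lay among the hippocampal arrays at 1 week rather than above all hippocampal arrays.

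**Figure D1:**
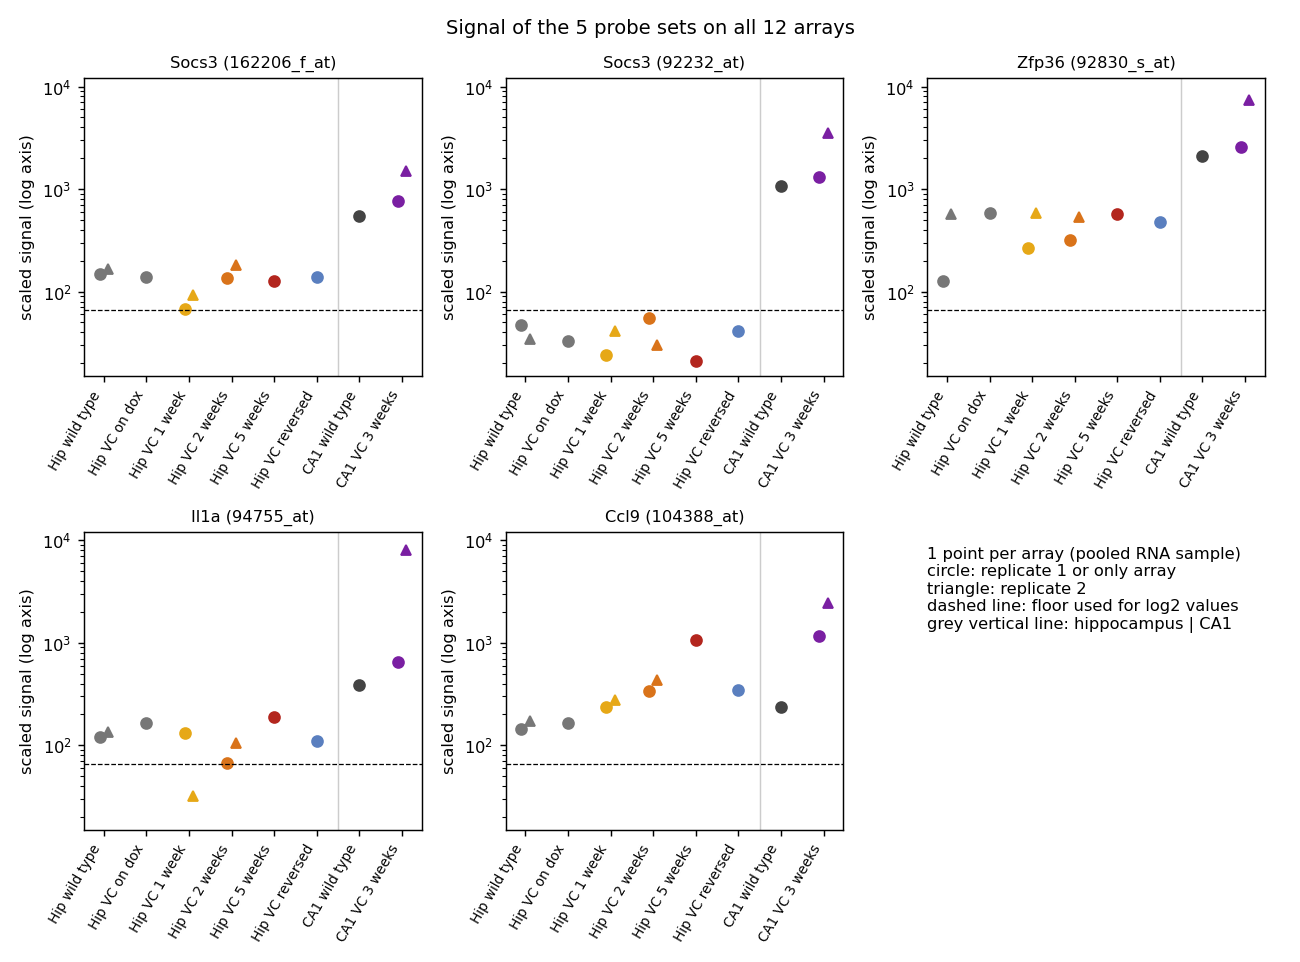
Rescaled signal (log axis) of the 5 probe sets on all 12 arrays, 1 point per array, with circles for replicate 1 or a group's only array and triangles for replicate 2; the dashed line is the floor of 65.7 and the grey vertical line parts hippocampus from CA1. Socs3, Zfp36 and Il1a are above every hippocampal array in wild-type CA1 already, while Ccl9 climbs from 144 to 172 in never-induced hippocampus to 1058 at 5 weeks.

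The region was compared first, wild-type CA1 against wild-type hippocampus, because the CA1 dissection can differ from whole hippocampus before any transgene acts. Of the 5 probe sets, 4 were past 2-fold above both wild-type hippocampal arrays, those of Socs3, Zfp36 and Il1a, against 2.84% of all tested probe sets, while 8.56% of all were past 2-fold below. The CA1 wild-type array is also the baseline by which the genes were picked, so this is a description. Both Socs3 probe sets and Il1a also entered the tested set through CA1 alone, which largely set their direction in advance. Socs3 was at least 16.4-fold higher by 92232_at, whose hippocampal arrays were all at the floor, and 3.5-fold higher by 162206_f_at. Il1a was 3.02-fold higher, 3.18-fold above wild type 1 and 2.87-fold above wild type 2. Ccl9 was 1.51-fold higher, short of the 2-fold line. In tissue RNA, more cells of a type and more RNA per cell cannot be told apart.

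The Zfp36 regional difference was 7.93-fold over the mean of the wild-type hippocampal arrays, and wild type 1 decides its size: it was 16.8-fold against that array and 3.73-fold against wild type 2. Its lowest CA1 array was still 3.59-fold above its highest hippocampal array. The same margin between the lowest CA1 and highest hippocampal array was 3.01-fold for Socs3 by 162206_f_at and 2.04-fold for Il1a. All 3 CA1 arrays lay above all 9 hippocampal arrays for 4 of the 5 probe sets, against 7.61% of all tested probe sets. For both Socs3 probe sets and Il1a this order was largely set by their entry to the tested set through CA1 alone, so the 2 shares are not alike. The CA1 arrays and wild type 1 were deposited at a lower scale than the other 8 arrays. Against wild type 1 alone the regional difference was 3.69-fold for Socs3 by 162206_f_at and at least 16.4-fold by 92232_at. It was 16.8-fold for Zfp36, 3.18-fold for Il1a and 1.65-fold for Ccl9. That array also held the lowest Zfp36 value of the series. The part of the deposited scale in the regional differences was not tested.

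Other measures moved with the region. The summed signal of 9 endothelial and pericyte markers was 7061 in wild-type CA1 and 3487 to 4136 in wild-type hippocampus. That of 16 microglia and macrophage markers was 28373 against 18483 to 21885, with Itgam and Ptprc at the floor in wild-type CA1. Early response genes other than the 4 (24 genes on the array, among them Fos, Egr1 and Dusp1) summed to 55225 against 27244 to 29730, and 5 of the 21 tested were past 2-fold above both wild-type hippocampal arrays. Astrocyte markers summed to 40520 against 38907 to 39442. Choroid plexus markers (5 genes) were lower, at 4801 against 7787 to 8018, and so were neutrophil and monocyte markers, at 2231 against 3769 to 4553. Blood markers were at 9755 against 6101 to 6923. The part of these in the regional differences was not tested. Markers of dentate granule cells summed to 4452 in wild-type CA1 against 6162 to 6751, with 0 of 4 tested past 2-fold below both wild-type hippocampal arrays. Those of CA1 pyramidal cells summed to 8585 against 7861 to 9325, and those of CA3 and CA2 pyramidal cells to 11534 against 9869 to 10226. The dissection label thus shows in a lower dentate sum, but neither in a higher CA1 sum nor in a lower CA3 and CA2 sum.

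**Figure D2:**
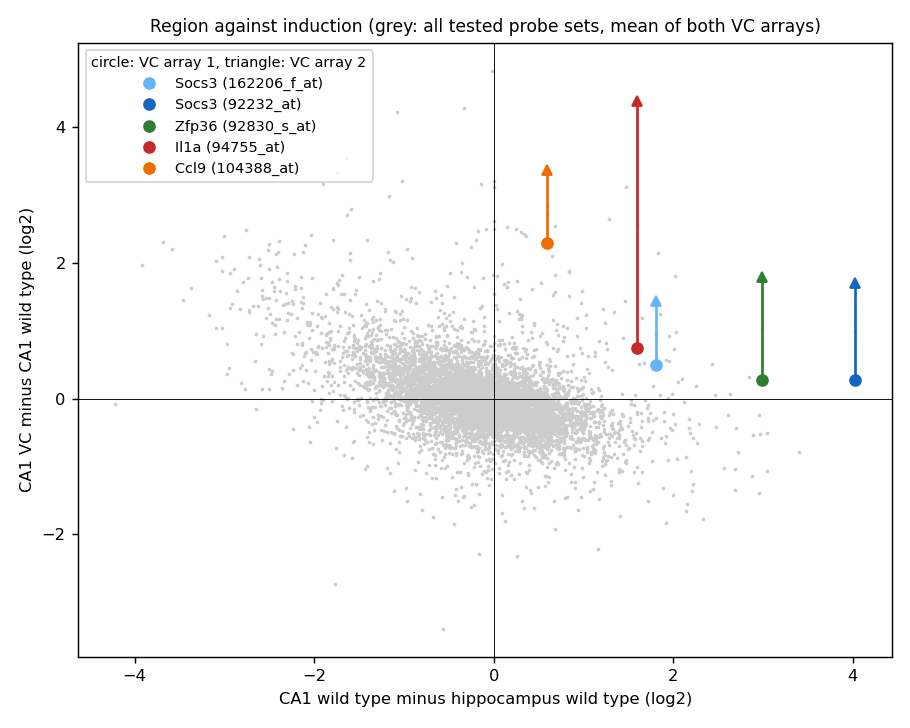
Log2 difference of wild-type CA1 from wild-type hippocampus (x axis) against log2 difference of CA1 VC from wild-type CA1 (y axis), with each of the 5 probe sets drawn as a line from CA1 VC 1 (circle) to CA1 VC 2 (triangle) and all 7069 tested probe sets in grey at the mean of both VC arrays. Socs3 and Zfp36 lie far to the right with VC 1 near 0, Il1a has the longest line, and Ccl9 lies close to the y axis and high on both arrays. Both axes use the same CA1 wild-type array, with opposite sign, so a downward slope in the grey cloud is built in.

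Induction was then read within CA1, VC 3 weeks off dox against wild type. With 1 wild-type array there is no test, and this contrast picked the genes. Of the 5 probe sets only Ccl9 was past 2-fold above wild type on both VC arrays, at 4.91-fold in VC 1 and 10.4-fold in VC 2. In all, 2.63% of tested probe sets were past 2-fold above on both arrays and 0.481% below. On VC 2 alone all 5 were past 2-fold, against 7.58% of all tested probe sets, and on VC 1 alone only Ccl9 was, against 3.96%.

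The 2 CA1 VC arrays differed by more than VC 1 differed from wild type for 4 of the probe sets, all but Ccl9. Zfp36 was 1.21-fold above wild type in VC 1 and 3.48-fold in VC 2. Socs3 was 1.21-fold and 3.27-fold above by 92232_at, and 1.42-fold and 2.72-fold above by 162206_f_at. Il1a was 1.67-fold above in VC 1 and 20.9-fold above in VC 2, a 12.5-fold gap between samples of 1 group. VC 2 was past 2-fold above VC 1 for 4 of the 5 probe sets (Socs3 92232_at, Zfp36, Il1a and Ccl9) against 7.12% of all tested probe sets, with 3.45% past 2-fold below. For Ccl9 this gap was 2.12-fold, smaller than its 4.91-fold difference between VC 1 and wild type. Without CA1 VC 1 all 5 probe sets pass 2-fold, and without CA1 VC 2 Ccl9 alone does.

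CA1 VC 2 was also the array on which other early response genes were highest. Their sum was 116319 in VC 2 against 49677 in VC 1 and 55225 in wild-type CA1, and 13 of the 21 tested were past 2-fold above wild type in VC 2 against 1 of 21 in VC 1. Their median log2 difference from wild type was 1.10 in VC 2 and -0.03 in VC 1, beside 0.01 and -0.03 over all tested probe sets. The microglia and macrophage markers did not follow that split: their sum was 77925 in VC 1 and 70724 in VC 2, against 28373 in wild type. Not all of them were detected, with Fcgr3, Itgam and Ptprc at the floor in VC 1 and Fcer1g in VC 2. Endothelial markers summed to 6797 and 5275, and astrocyte markers to 58619 and 37885, against 7061 and 40520 in wild type. The astrocyte sum and median differ: over 9 tested astrocyte markers the median log2 difference from wild type was 0.22 in VC 1 and 0.32 in VC 2. Of the neutrophil and monocyte markers (9 genes, summing to 3024 and 2686 against 2231 in wild type) Ngp and S100a9 were at the floor on all 3 CA1 arrays. T and B cell markers (8 genes) summed to 1956 and 2027 against 1662, with Cd3d, Cd3e and Cd3g at the floor on both VC arrays. The part of microglial or early response RNA in the CA1 values of the 4 genes was not tested.

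**Figure D3:**
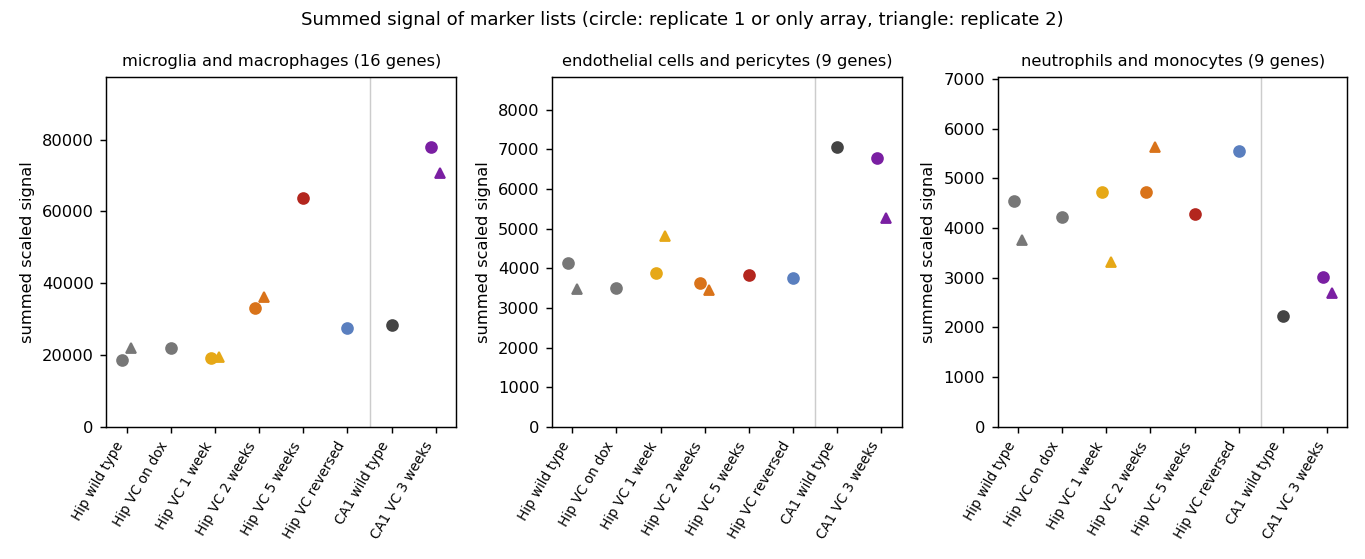
Summed rescaled signal of 3 marker lists on the 12 arrays, 1 point per array, with circles for replicate 1 or a group's only array and triangles for replicate 2. Microglia and macrophage markers reach 63810 at 5 weeks in hippocampus and 77925 and 70724 in CA1 VC, endothelial markers are highest in CA1 of either genotype, and neutrophil and monocyte markers are lowest in CA1.

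The genes were picked by their CA1 values, so the hippocampal values could be tested, although earlier results of these data were known. The fit takes its spread from all 12 arrays, so the gap between the CA1 VC arrays enters the standard errors, most of all for Il1a. P-values came from limma over all 12 arrays with Benjamini-Hochberg adjustment over the 7069 probe sets. They rest on how samples varied, which were pools in hippocampus and of unstated mouse number in CA1, and say nothing of single mice. Comparing the 5 induced with the 3 never-induced arrays, 0 of the 5 probe sets passed an adjusted p of 0.05, against 0.0283% of all tested. Ccl9 was 2.51-fold higher (log2 1.33 ± 0.43 SE, unadjusted p = 0.0117, limma adjusted p = 0.999), with all 5 induced arrays above all 3 never-induced ones. That complete separation held for 1 of the 5 probe sets, Ccl9, and for 1.71% of all. Ccl9 was above the median on 2 of 9 hippocampal arrays and 2 CA1 arrays, so it passed the filter on few arrays and the 2 shares are not alike. For Zfp36 the log2 difference was 0.32 ± 0.54 SE, for Il1a -0.43 ± 0.66 and for Socs3 (162206_f_at) -0.40 ± 0.31, each with a limma adjusted p of 0.999. Without wild type 1 the Zfp36 difference turned to -0.41. Socs3 (92232_at), at the floor throughout, could show no difference. Fitted on the hippocampal arrays alone, with the same differences, Il1a had an unadjusted p of 0.223 for induced, 0.109 at 1 week, 0.0571 at 2 weeks and 0.308 at 5 weeks (limma adjusted p = 0.999, 0.657, 0.703 and 0.79). None of these shows that the 3 genes stayed level in induced hippocampus.

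At 5 weeks Ccl9 rose. It was 6.64-fold above never-induced hippocampus (log2 2.73 ± 0.37 SE, n = 1 against 3, limma adjusted p = 0.0118), the 1 of 5 probe sets called, where 0.99% of all tested were called and 0.863% called higher. The single 5-week array is assumed by the fit to vary like the replicated groups. Here too the shares are not alike, because Ccl9 passed the filter on few arrays. The call was lost on the unfiltered table of 12422 probe sets (the same log2 difference of 2.73, limma adjusted p = 0.09) and on values left at their deposited scales (3.46, limma adjusted p = 0.744). At that time Il1a differed by 0.44 ± 1.09 SE, Zfp36 by 0.73 ± 0.93 and Socs3 (162206_f_at) by -0.26 ± 0.36 on the log2 scale, each with a limma adjusted p of 0.997.

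The earlier times place Ccl9 in between. It was 1.6-fold above never-induced hippocampus at 1 week (log2 0.68 ± 0.30 SE, n = 2 against 3, limma adjusted p = 0.969), where 0 of the 5 probe sets and 0.0283% of all were called. At 2 weeks it was 2.41-fold above (log2 1.27 ± 0.30 SE, unadjusted p = 0.00232, limma adjusted p = 0.355), with 0 of 5 and 0.156% of all called. Both arrays of each time lay above all 3 never-induced arrays. A fit to the hippocampal arrays alone gave the 2-week difference a limma adjusted p of 0.0344. Between neighbouring times the steps did not pass: 2 weeks minus 1 week was 0.59 ± 0.32 SE (limma adjusted p = 0.606) and 5 weeks minus 2 weeks was 1.46 ± 0.40 (limma adjusted p = 0.477). From 1 week to 5 weeks Ccl9 differed 4.14-fold (log2 2.05 ± 0.40 SE, limma adjusted p = 0.0824, and 0.0101 on the hippocampal arrays alone), with 0 of 5 and 0.637% of all called.

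After reversal Ccl9 read 345, above the 3 never-induced arrays and within the range of the 2-week arrays, 2.17-fold over never-induced hippocampus (log2 1.11 ± 0.69 SE, limma adjusted p = 1). In that comparison 0 of the 5 probe sets and 0% of all tested were called, although 180 probe sets had an unadjusted p under 0.05 and Ccl9 was not among them. Socs3 (162206_f_at) was the only other probe set of the 5 with an unadjusted p under 0.05 against never-induced hippocampus. It was 1.9-fold lower at 1 week (log2 -0.93 ± 0.29 SE, limma adjusted p = 0.969), with both arrays below all 3 never-induced ones. Its 1-week values lay near the floor, and with the floor at the 30th percentile the difference was -0.21 (limma adjusted p = 0.985). At 2 weeks it was 0.06 ± 0.29 (limma adjusted p = 1).

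Ordered by level, Ccl9 ran from the 3 never-induced arrays through 1 week, with wild-type CA1 among them, to 2 weeks with the reversed array, and then to 5 weeks and the CA1 VC arrays. CA1 VC 1, 3 weeks after induction, was 1.1-fold above the 5-week hippocampal array and CA1 VC 2 was 2.33-fold above it. For Il1a the same margins over the 5-week array were 3.42-fold and 42.8-fold, and for Zfp36 4.45-fold and 12.8-fold. Times and dissection differ between these arrays, so the values stand side by side without a comparison of effects.

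**Figure D4:**
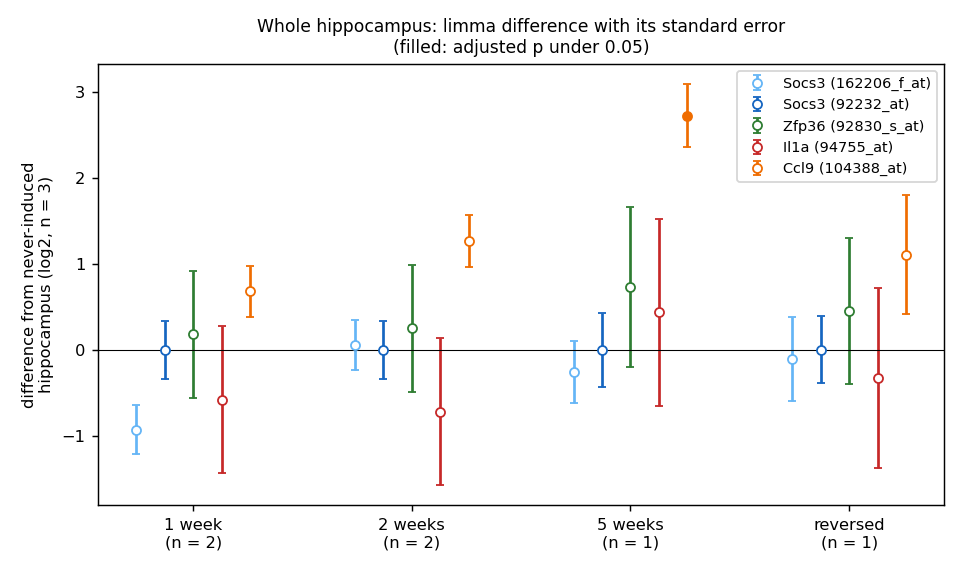
Log2 difference from never-induced hippocampus (n = 3) of the 5 probe sets at 1 week (n = 2), 2 weeks (n = 2), 5 weeks (n = 1) and after reversal (n = 1), from limma, with bars of 1 standard error and a filled point where the adjusted p is under 0.05. Ccl9 is the only filled point, at 2.73 for 5 weeks, and Socs3 by 92232_at is at 0 throughout because it was at the floor on every hippocampal array.

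The microglia and macrophage marker sum moved with Ccl9 in hippocampus. It was 18483 to 21885 in the never-induced arrays, 19084 to 19320 at 1 week, 33225 to 36122 at 2 weeks, 63810 at 5 weeks and 27586 after reversal. At 1 week, when both Ccl9 values were above all never-induced ones, the marker sum lay within the never-induced range. Fcer1g was at the floor on all arrays of these groups except the 5-week one, and Ptprc was at the floor on both 1-week arrays. Neutrophil and monocyte markers summed to 4275 at 5 weeks against 3769 to 4553 in never-induced hippocampus, with Ngp and S100a9 at the floor in both. Other marker sums also moved at 5 weeks. Astrocyte markers were at 61156 against 38907 to 41217 in never-induced hippocampus, choroid plexus markers at 13053 against 5230 to 8018, blood markers at 11428 against 5209 to 6923 and dentate granule markers at 3605 against 6065 to 6751. At 1 week choroid plexus markers were at 14842 and 16131, and blood markers at 7291 and 15465. The part of these RNAs in the hippocampal values of Ccl9 and Socs3 was not tested. As a check of the induction, Creb1 (102672_g_at) read 48.1 to 80.3 in never-induced hippocampus, 316.4 to 792.9 in hippocampus off dox, 137.6 in the reversed pool, and 463.9 and 753.4 in CA1 VC against 58.6 in its wild type (induced against never-induced 7.02-fold, limma adjusted p = 0.0104). The other tested Creb1 probe set, 102671_at, spanned 282.3 to 567.6 in hippocampus off dox and 82.1 to 201.8 in the arrays without induction (2.68-fold, limma adjusted p = 0.999). Creb1 probe set 102673_at did not pass the filter on low values.

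The wider pathways were followed in 8 lists of 158 genes, of which 76 genes besides the 4 had a tested probe set (89 probe sets). Of those 89, 9 were past 2-fold above wild-type CA1 on both CA1 VC arrays and 0 below, beside 2.63% and 0.481% of all tested probe sets. The lists share genes, so counts by list are not independent. Chemokines were 4 of these 9. Of 8 tested CC chemokines and receptors, Ccl9 included, 5 were past 2-fold above on both arrays, and the list's median log2 difference was 1.40 in VC 1 and 3.06 in VC 2, beside -0.03 and 0.01 over all tested probe sets. The microglial and early response values given above stand beside these counts too.

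Ccl12, a ligand of CCR2, was at the floor in wild-type CA1 and at least 5.85-fold higher in VC 1 and at least 14.7-fold higher in VC 2. Ccl2, another CCR2 ligand, was 4.17-fold and 8.19-fold higher. Ccl4 and Ccl3, inflammatory chemokines of macrophages, were 3.03-fold and 12.9-fold, and 2.31-fold and 8.54-fold higher. Each of these 4 chemokines was higher in VC 2 than in VC 1, as Ccl9 was. Outside the chemokines, Tnf, whose mRNA is a TTP target, was 2.81-fold and 15.5-fold higher, and Tnfrsf1a, a receptor for its product, 4.35-fold and 4.66-fold. The wild-type CA1 value of Tnfrsf1a (125.9) was below all 9 hippocampal arrays (245.9 to 516.7), and its VC values were 547.8 and 586.3. Nfil3, a bZIP transcription factor, was 3.79-fold and 4.36-fold higher by an _f_at probe set, whose wild-type CA1 value (130.3) was below all 9 hippocampal arrays (230.7 to 601.1), while its other tested probe set gave log2 differences of 0.27 and 0.43. Osmr, the receptor subunit for oncostatin M, was 2.36-fold and 2.55-fold higher. Tnfrsf1a, Nfil3 and Osmr were about level between the 2 VC arrays, at 1.07-fold, 1.15-fold and 1.08-fold, unlike Socs3, Zfp36 and Il1a.

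**Figure D5:**
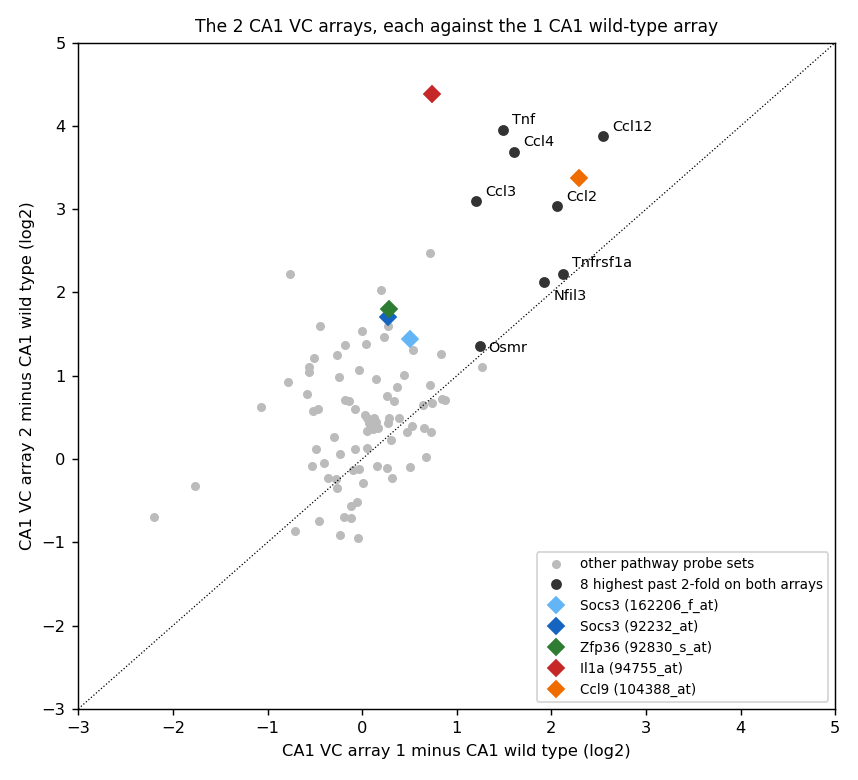
Log2 difference from wild-type CA1 in CA1 VC 1 (x axis) and CA1 VC 2 (y axis) for the 5 probe sets (diamonds) and the 89 other tested probe sets of the pathway lists (circles), with the 8 highest mean differences past 2-fold on both arrays named; the dotted line is equality. Socs3, Zfp36 and Il1a lie above the line with small values in VC 1, and Ccl9 lies among the named chemokines.

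The other lists were counted the same way in CA1. Of 8 tested TTP target mRNAs 3 were past 2-fold above on both arrays (medians 0.62 in VC 1 and 2.35 in VC 2), and 7 of 8 were past 2-fold in VC 2. Over all tested probe sets these shares were 2.63% and 7.58%. The 3 were Tnf, Ccl2 and Ccl3, which are also in the NF-kappa-B or chemokine lists. Of 12 tested NF-kappa-B pathway genes 2 were past 2-fold above on both (0.28 and 0.47), and of 8 interleukin-6 family ligands and receptors 1 was (0.01 and -0.05). None of 14 tested SOCS and JAK-STAT genes (-0.01 and 0.09) and none of 6 tested interleukin-1 family genes (-0.19 and -0.19) was past 2-fold on both, Socs3 and Il1a included. Of 9 TTP family and AU-rich element binding genes 1 was, Zfp36l2 by 93944_r_at, at a log2 difference of 1.26 and 1.11. By that probe set wild-type CA1 (193.9) lay below all hippocampal arrays (574.5 to 1027.5). The other tested Zfp36l2 probe set, 160273_at, gave 0.38 and 0.49. None of these lists had a gene past 2-fold below on both.

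Close relatives of the 4 genes were set beside them, chosen by name after their values were seen. Socs1 read 71.1 to 506 in hippocampus and 249.2, 320.6 and 454 in wild-type CA1, VC 1 and VC 2. Socs2 read 793.6 to 1094.1 in hippocampus and 1310.4, 1264.1 and 914.7 in CA1, and Cish 262.5 to 572.2 and then 328.6, 408.7 and 280.7. None of these 3 SOCS relatives showed the step between tissues seen for Socs3. Zfp36l1, a TTP relative, read 367.7 to 935.2 in hippocampus and 678.2, 922.5 and 1369.7 in CA1. Zfp36l2, another, read 372.2 to 891.1 and then 990, 1291.9 and 1389.5 by 160273_at, so all its CA1 arrays lay above hippocampus, as for Zfp36. By 93944_r_at Zfp36l2 went the other way, with 574.5 to 1027.5 and then 193.9, 465.9 and 417.4. Il1b, the other classical interleukin-1 ligand, did not pass the filter on low values and read 14.4 to 51.3 in hippocampus, 17 in wild-type CA1, 61.4 in VC 1 and 613.3 in VC 2. Like Il1a it was highest in CA1 VC 2, and it was below the floor on the other 11 arrays. Il1rn, which encodes the interleukin-1 receptor antagonist, read 129 to 235.8 in hippocampus and 177.7, 46.4 and 261.3 in CA1. Ccl6, a chemokine close to Ccl9, read 187.5 to 319.1 in hippocampus and 368.2, 441.3 and 341.8 in CA1, without the gap between wild type and VC seen for Ccl9. Ccr1, the Ccl9 receptor, did not pass the filter and read 31.4 to 159.7 in hippocampus and 28.4, 122.3 and 15 in CA1.

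In whole hippocampus 3 probe sets of the lists besides Ccl9 were called, all at 5 weeks. Ccl12 was at the floor in all never-induced arrays, 138.4 and 148.4 at 2 weeks and 459.8 at 5 weeks, at least 7-fold higher at 5 weeks (limma adjusted p = 0.0154) and at least 7-fold above 1 week (limma adjusted p = 0.0273). Osmr was 3.32-fold higher (limma adjusted p = 0.0219), with 650.9 at 5 weeks against 163.5 to 261.3 in the never-induced arrays. Fos, an AP-1 subunit whose mRNA is a TTP target, was 5.13-fold higher (limma adjusted p = 0.0282), from 959.3 to 1332 in the never-induced arrays to 5620.3. CA1 had 6092.1 in wild type, 5966.6 in VC 1 and 12782.9 in VC 2, so Fos shared the regional step and the VC 2 excess of Zfp36 and Socs3, and differed from them in its hippocampal call. Of the lists at 5 weeks, the CC chemokines had 2 of 8 called (Ccl9 and Ccl12, median log2 difference 1.49). The TTP targets had 1 of 8 (1.09) and the early response genes 1 of 21 (0.78), which was Fos in both. The interleukin-6 family had 1 of 8 (0.14), Osmr, and 0.99% of all tested probe sets were called. The SOCS, TTP family, interleukin-1 and NF-kappa-B lists had none called (-0.10, 0.00, 0.31 and -0.09), beside a median of -0.03 over all tested.

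The genes most like each of the 4 were ranked by Pearson's r of log2 values over the 12 arrays, a description in which all points share the step between tissues and CA1 VC 2. Nearest to Socs3 (162206_f_at) were Nfkbia (r = 0.944), Chmp6 (0.940), Fosb (0.935), Sidt2 (0.935) and Bcan (0.928). Nearest to Zfp36 were Pttg1ip (0.932), Gna12 (0.931), Coa3 (0.930), Rnf44 (0.922) and Slc2a1 (0.919), and of these Slc2a1 was 1.72-fold higher in VC 2 than in VC 1 while the others were 1 to 1.17-fold. Nearest to Il1a were Nfkbia (0.948), Nfkbiz (0.945), Tnf (0.944), Ccl2 (0.930) and Klf4 (0.926). Without CA1 VC 2 these Il1a values fell to between 0.750 and 0.837. Nfkbia, the inhibitor of NF-kappa-B that NF-kappa-B itself induces, headed both the Socs3 and the Il1a rankings. It read 1079 to 1599.8 in hippocampus, 2586.7 in wild-type CA1, 3114.6 in VC 1 and 7804.9 in VC 2 (101554_at).

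Ccl9 had other neighbours: Ccl12 (r = 0.961), Tmem176b (0.959), B2m (0.958), Tst (0.955) and Ctsh (0.951). Over the 9 hippocampal arrays alone these stayed between 0.895 and 0.963. Over the same 9 arrays the Zfp36 neighbours gave 0.682 to 0.787, the Socs3 neighbours 0.249 to 0.769 and the Il1a neighbours 0.00982 to 0.664. B2m encodes the light chain of MHC class I, and Ctsh a lysosomal protease. No gene was among the 5 nearest of both Ccl9 and another of the 4.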

How the data were processed

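The deposited value table of 12 arrays was analysed; scanner files were not analysed here. Its values are linear signal intensities deposited by the authors, made with GCOS per the submitters' processing notes, whose version and algorithm those notes do not name. The deposited trimmed means were 500.3 to 500.4 on 4 arrays (wild-type hippocampus 1 and the CA1 arrays) and 3002 on the other 8, so signals were multiplied per array to bring the mean, trimmed by 2% at each end, to 1000. Before log2, anything under 65.7 (the 20th percentile of all arrays together) was set to that floor. Of 12488 probe sets 66 were controls, and 7069 of the other 12422 were above their array's median on at least 2 arrays and were tested. Of those 12422, 10833 had 1 gene symbol in the platform annotation, 396 several and 1193 none.

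Linear models over all 12 arrays used lmFit and eBayes of limma 3.58.1 under R 4.3.3, with 5 levels for the induced and reversed comparisons and 7 for single times, two-sided, called at a Benjamini-Hochberg adjusted p under 0.05. The scripts were tested on simulated data. Array correlations over tested probe sets were 0.932 to 0.978 within hippocampus, 0.907 to 0.947 within CA1 and 0.828 to 0.921 between them, and no 2 columns were identical. The number of arrays limits the precision. List medians and marker sums use each gene's brightest probe set. Named genes of the lists were those called in hippocampus and the up to 8 with the largest mean difference past 2-fold on both CA1 VC arrays; likeness used each gene's brightest probe set on average and the 5 highest correlations. The members and lists were chosen with earlier results of these data known. Alternatives were the deposited scale, quantile normalization, 10th and 30th percentile floors, no filter, the deposited scale or replicate number as a block, hippocampal arrays alone, eBayes with trend and robust settings, and leaving out single arrays. In the fits these were the compared never-induced and induced hippocampal arrays. In the CA1 and regional descriptions they were the CA1 VC and the wild-type hippocampal arrays. The reversed and wild-type CA1 arrays were never left out singly, nor was a CA1 VC array from a fit.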

Additional observations from a re-analysis of the deposited data

How the results depend on the processing

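With 1 wild-type CA1 array, 1 array at 5 weeks and 1 after reversal, array number limits every value. Ccl9 at 5 weeks stayed positive in 11 alternatives, from 2.66 to 3.46 on the log2 scale, and was called in 9 of them (adjusted p 0.00236 to 0.744). At deposited scales, which mix 2 array scales by construction, probe sets called were 5 for induced, 0 at 1 week, 2 at 2 weeks, 2 at 5 weeks (members 0) and 1 for 5 weeks against 1 week. There 1 member was past 2-fold between regions, the regional difference turned to -0.90 for Ccl9 and -0.02 for Il1a, the Socs3 (162206_f_at) difference turned to 0.35 (induced), 0.49 (5 weeks) and 0.63 (reversed), and that of Il1a to 0.01 (induced) and 0.32 (reversed). Without the filter the calls were 0 for induced, 5 at 1 week, 6 at 2 weeks and 43 for reversed, and members called at 5 weeks were 0. Hippocampal arrays alone gave 1 for induced, 1 at 1 week and 22 at 2 weeks, with 1 member called at 2 weeks and 1 for 5 weeks against 1 week (Ccl9). Deposited scale as a block, which in hippocampus equals leaving out wild type 1, gave 0, 1 and 3 calls for induced, 1 week and 2 weeks, and Zfp36 turned to -0.41, -0.55, -0.48 and -0.29 for induced, 1 week, 2 weeks and reversed. The 30th percentile floor gave 0 calls for induced. At 1 week the 10th percentile floor and quantile normalization gave 0, and trend and robust settings 1. Socs3 (162206_f_at) at 1 week shrank to -0.18 at deposited scales and -0.21 with the 30th percentile floor. The cause of these changes was not tested.

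Leaving out 1 array gave 0 to 2 calls for induced (2 with all arrays), 0 to 1 at 1 week (2), 2 to 8 at 2 weeks (11), 40 to 55 at 5 weeks (70), 3 to 10 for 5 weeks against 1 week (45), and 1 to 5 members past 2-fold in CA1. The count for 5 weeks against 1 week was 3 without 1-week replicate 1 and 10 without 1-week replicate 2. Over these fits the Zfp36 difference ran from -0.41 to 0.70 for induced, from -0.55 to 0.76 at 1 week (-0.39 without 1-week replicate 2), from -0.48 to 0.63 at 2 weeks (-0.12 without 2-week replicate 2), from -0.03 (without 1-week replicate 1) to 1.12 for 5 weeks against 1 week and from -0.29 to 0.83 for reversed. Socs3 (162206_f_at) ran from -0.15 (without 2-week replicate 2) to 0.27 at 2 weeks. Replicate numbers did not pair the samples: correlations of replicate differences over 6 pairs of groups ran from -0.23 to 0.20. The replicate block on numbered hippocampal arrays gave 0 calls for induced and 2 at 2 weeks, with 0 members called. It was not run for 5 weeks, 5 weeks against 1 week or reversed, where a group has no number to share, and the single 5-week array was not left out of its own comparison.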
